A study of Homo sapiens with 8 samples.

Results

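The genes described here carry symbols that begin with MRPL or MRPS followed by a number, and most encode proteins of the mitochondrial ribosome. They were picked by symbol, with hyphenated symbols left out, and 79 of the 18216 genes in the deposited table matched. This set was chosen with earlier results of these data known. RNA was measured in IMR90 cells, a line of human fetal lung fibroblasts, at passage 28, grown in 3% oxygen and 5% carbon dioxide with 10% serum. Treated cells received Nutlin-3a at 3 µg/mL for 6, 9 or 12 h, and the control cells received DMSO, its solvent. Nutlin-3a occupies the pocket of MDM2 that binds the transcription factor p53, so that p53 is no longer held down by MDM2. Each of the 4 groups had 2 libraries of polyA RNA, 8 in all.

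The mitochondrial ribosome translates the few messenger RNAs made from mitochondrial DNA, all of which encode subunits of the respiratory chain and ATP synthase. Its ribosomal RNAs come from mitochondrial DNA, whereas every one of its proteins is encoded in the nucleus, made in the cytosol and imported. A large subunit (MRPL names) forms the peptide bonds, and a small subunit (MRPS names) holds the messenger and reads its codons. Some of its proteins have counterparts in all ribosomes, some only in bacterial ribosomes, and many exist only in mitochondria. The genes are transcribed in most human cells, and NRF1 and GABP (an ETS-family factor) are known activators of many nuclear genes for mitochondrial proteins. p53 is known mainly for inducing cell cycle arrest and DNA repair genes, and its arrest program also lowers RNA of many genes of growth and division.

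Known targets of p53 were higher in all 6 Nutlin-3a libraries. CDKN1A, the cell cycle inhibitor that p53 induces, had 52553 and 54207 normalized counts at 6 h, 68941 and 69997 at 9 h and 72462 and 70871 at 12 h, against 4954 and 4670.0 in DMSO. MDM2 rose as well, by a log2 change of 3.03 at 6 h. The libraries held 21.9 to 33.6 M gene reads. All 10 fibroblast markers were in the table, while PTPRC and CD14 of blood cells, CDH1 of epithelium and CDH5 of endothelium lay between 0 and 6.73 normalized counts in all libraries. At least 10 normalized counts in at least 2 libraries were reached, however, by 5 of the 6 epithelial markers. So were they by 2 of the 3 endothelial and 1 of the 3 immune markers in the table. The fibroblast markers summed to 1224120 to 1240420 at 6 h, below DMSO (1265510 to 1293960), and to 1450770 to 1459230 at 9 h and 1495230 to 1527720 at 12 h, above it. The 6 epithelial markers summed to 3579 to 3757 at 6 h and 3231 to 3237 at 9 h, above DMSO (2958 to 3014), and to 2822 to 2949 at 12 h, below it. The 4 smooth muscle or pericyte markers, mostly CSPG4, summed to 10208 to 11547 over the 3 times, against 7030 to 7081 in DMSO. The 3 endothelial markers in the table summed to 23.7 to 36.4 at 12 h, below DMSO (39.7 to 51.8), and the 3 immune markers, mostly CD68, to 908 to 992 at 9 and 12 h, above DMSO (746 to 900.2). The part of these differences in the results on the members was not tested. DMSO replicates lay farther apart (SD of their log2 difference 0.158 over 10612 genes) than those of any Nutlin-3a group (at most 0.111). Whether replicates were grown as separate cultures is not stated, and p-values thus reflect the spread among these libraries, which may be technical. How long the DMSO cells were kept is not given either, so that time in culture and time in Nutlin-3a cannot be told apart, and every comparison with DMSO uses the same 2 control libraries.

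The 79 genes comprised 51 for large-subunit proteins, 25 for small-subunit proteins, MRPS36 and the 2 pseudogenes MRPL45P2 and MRPS31P5. MRPS30 and MRPS18A count among the 51, because their products sit in the large subunit despite their names, and MRPS36 is known as a component of the 2-oxoglutarate dehydrogenase complex. MRPS18B was not analysed here. Of the 79 genes, 78 had a normalized count of at least 10 in at least 2 libraries and were tested. The exception was MRPS24, which had 7.5 and 2.88 normalized counts at 6 h, 6.97 and 6.39 at 9 h and 4.91 and 9.37 at 12 h, against 9.77 and 4.3 in DMSO. These are few reads, since 3 reads are worth 2.46 to 3.75 normalized counts. In the GENCODE v29 annotation MRPS24 overlaps the readthrough gene URGCP-MRPS24 on the same strand, and how reads shared by both genes were counted was not tested.

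Most members were expressed at a moderate level. Mean normalized counts over the 8 libraries were highest for MRPL3 (2879), MRPL51 (2455) and MRPL37 (2163). Among the tested members they were lowest for MRPL45P2 (32.5) and MRPS31P5 (94.3). Per kilobase of exon, taken from GENCODE v29, the 51 large-subunit genes had a median of 568 normalized counts and the 25 small-subunit genes 387. MRPL18 stood highest on that scale with 1726 per kilobase, followed by MRPL3 with 1599, MRPL12 with 1589, MRPL51 with 1583 and MRPS34 with 1577. These levels follow from exon lengths of another genome build than the authors used, and order the genes only roughly.

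As a group, the members' RNA was slightly lower with Nutlin-3a. Reads of the 79 genes made up 0.267 and 0.276% of gene reads at 6 h, 0.268 and 0.276% at 9 h and 0.271 and 0.276% at 12 h, against 0.292 and 0.289% in DMSO. All 6 Nutlin-3a libraries lay below both DMSO libraries. In a bulk measurement, less RNA per cell and fewer cells of a kind cannot be told apart. On the log2 scale the median change of the 78 tested members was -0.075 at 6 h, -0.083 at 9 h and -0.079 at 12 h, where the median of all 14074 tested genes was -0.012, 0.010 and 0.011. The change was below 0 for 53, 55 and 50 of the 78 members at 6, 9 and 12 h.

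**Figure D1:**
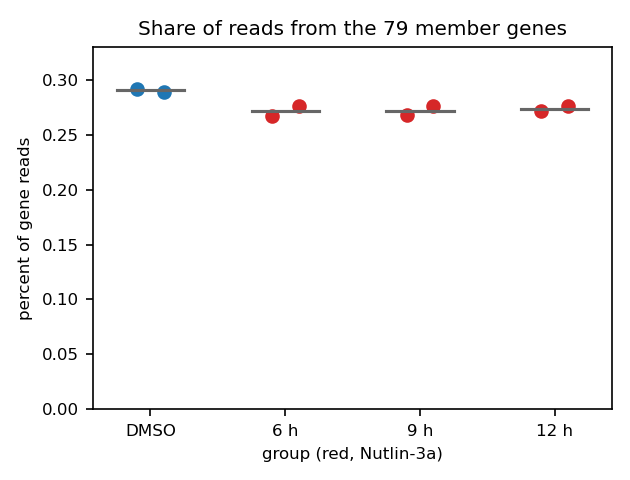
Share of gene reads that came from the 79 member genes (percent, vertical axis) in each library, by group, with a line at the mean of the 2 libraries. The 6 Nutlin-3a libraries (red) sit between 0.267 and 0.276%, and the DMSO libraries (blue) at 0.292 and 0.289%.

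Changes of single members were small. At 12 h 71 of the 78 members lay within 0.25 of 0 on the log2 scale, compared with 8284 of all 14074 genes, and 1 member lay beyond 0.5, compared with 2527 of all genes. By limma, adjusted over all genes at 0.05, 3 members rose and 20 fell at 6 h, 3 rose and 16 fell at 9 h, and 4 rose and 22 fell at 12 h. Among all genes 36.7% were called at 6 h (16.1% rose and 20.6% fell), 35.3% at 9 h (16.2% rose and 19.1% fell) and 39.9% at 12 h (18.5% rose and 21.4% fell). Of the 78 members 29.5%, 24.4% and 33.3% were called at the 3 times, which is below the share of all genes each time. The members that rose were 3.85%, 3.85% and 5.13%, and those that fell were 25.6%, 20.5% and 28.2%, so the share that fell lay near or a little above that of all genes and the share that rose lay well below it.

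The split between rises and falls changed when libraries were scaled to each other by quantiles, and less with TMM scaling. With quantile scaling, 8 members rose and 11 fell at 6 h (17.7% and 18.0% of all genes), 4 rose and 7 fell at 9 h (19.7% and 16.2%), and 14 rose and 8 fell at 12 h (23.9% and 17.6%). Rises then made up 42.1%, 36.4% and 63.6% of the called members, against 13.0%, 15.8% and 15.4% with the size factors the authors used. Quantile scaling shifted the median of all genes by 0.016, 0.023 and 0.036 on the log2 scale at 6, 9 and 12 h, and the members' median became -0.014, -0.021 and -0.0056. The median of all genes was then 0.0040, 0.033 and 0.047, above that of the members each time. With TMM scaling rises made up 13.6%, 15.8% and 27.3% of the called members. The members' median was -0.067, -0.073 and -0.060 with TMM scaling. By the tests in the authors' deposited files, 1 member rose and 16 fell at 6 h (12.1% and 17.0% of all genes), 2 rose and 11 fell at 9 h (12.0% and 16.4%), and 3 rose and 11 fell at 12 h (13.7% and 18.4%). An F test over the 4 groups by limma called 22 members, where it called 49.9% of all genes.

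Single libraries moved these counts too. The shares of all genes called with a library left out are not given, here or below. Such counts thus cannot tell a move of the members from a move of all genes. Without replicate 1 at 6 h, 6 members fell at 6 h. Without replicate 1 at 9 h, 6 fell at 9 h. Without replicate 1 at 12 h, 10 fell and 2 rose at 12 h, and without replicate 2 at 12 h, 11 fell. Leaving out DMSO replicate 2 gave 8 members that rose at 6 h, 7 at 9 h and 10 at 12 h. Leaving out DMSO replicate 1 gave 2 that rose at 12 h, and leaving out replicate 2 at 6 h gave 1 that rose at 6 h.

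Both libraries of a Nutlin-3a group lay below both DMSO libraries more often than above them. At 6 h both Nutlin-3a libraries were above both DMSO libraries for 13 members and below them for 36, while 29.0% and 33.7% of all genes did so. At 9 h 8 members were above and 37 below, with 32.2% and 31.9% of all genes. At 12 h 15 members were above and 37 below, with 33.6% and 33.5% of all genes. With 2 libraries against 2, an exact two-sided permutation test of one gene cannot go below 0.333.

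**Figure D2:**
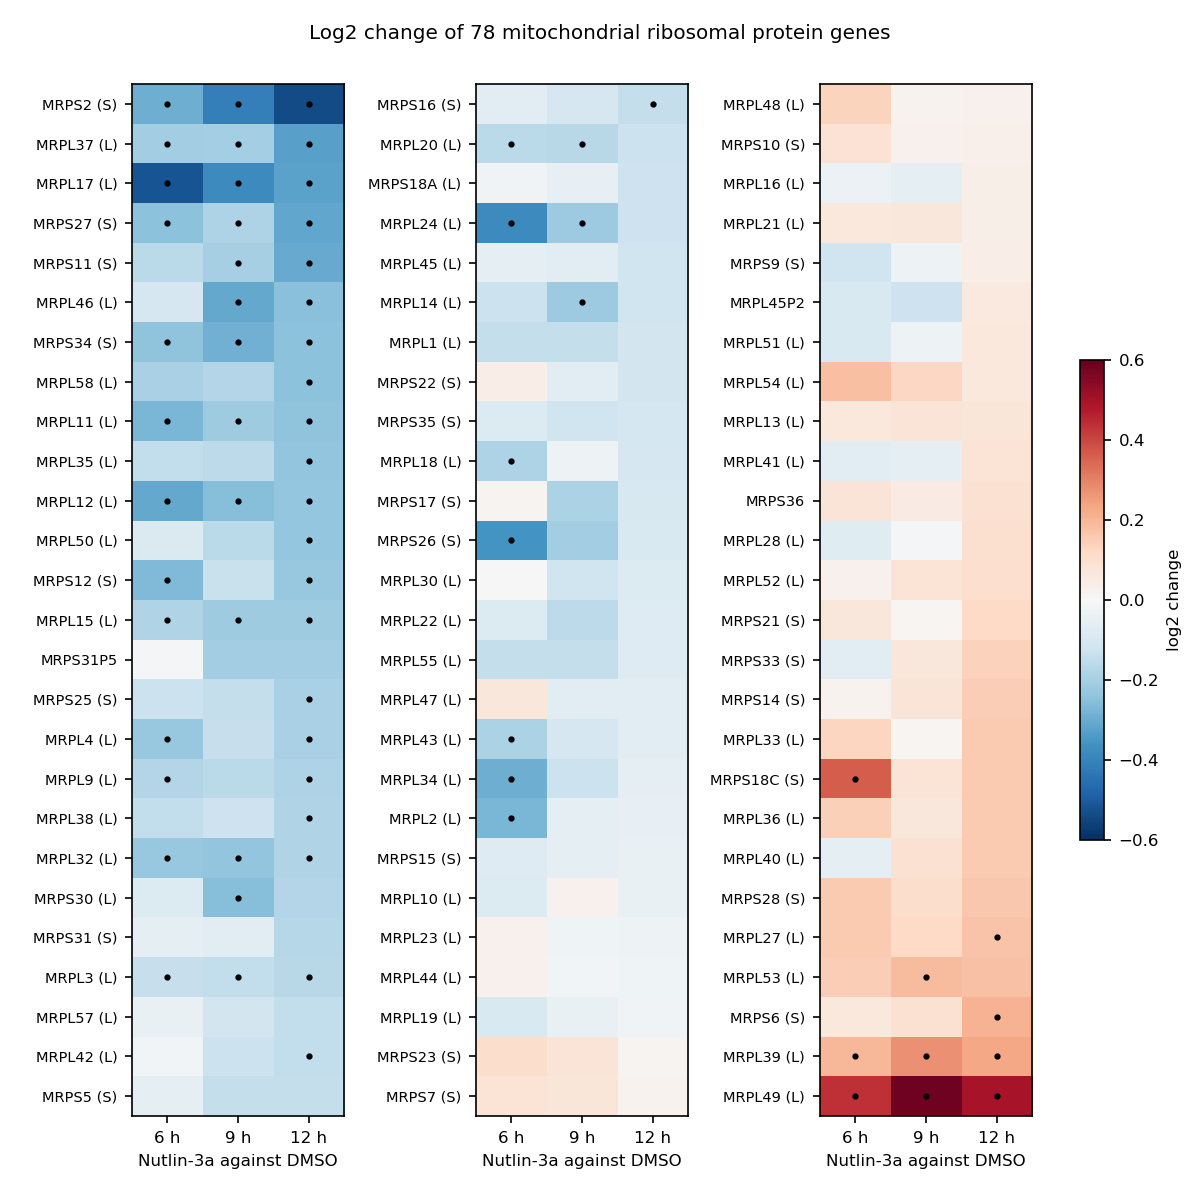
Log2 change of each of the 78 tested members (rows, ordered by the change at 12 h; L, large subunit; S, small subunit) at 6, 9 and 12 h of Nutlin-3a against DMSO, with a dot where limma called the change. Red is higher and blue lower with Nutlin-3a, and 71 of 78 members lie within 0.25 of 0 at 12 h.

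Both subunits were represented among the falls. Of the 51 large-subunit genes, 2 rose and 15 fell at 6 h, 3 rose and 12 fell at 9 h, and 3 rose and 15 fell at 12 h. Of the 24 tested small-subunit genes, 1 rose and 5 fell at 6 h, 0 rose and 4 fell at 9 h, and 1 rose and 7 fell at 12 h. Under quantile scaling 7, 4 and 10 large-subunit genes rose and 7, 5 and 4 fell at 6, 9 and 12 h, and 1, 0 and 4 small-subunit genes rose and 4, 2 and 4 fell. Of all genes 17.7, 19.7 and 23.9% rose and 18.0, 16.2 and 17.6% fell under that scaling. With the authors' size factors the shares that fell were 29.4, 23.5 and 29.4% in the large subunit and 20.8, 16.7 and 29.2% in the small one, against 20.6, 19.1 and 21.4% of all genes, so that those of the small subunit at 6 and 9 h were close to the share of all genes. Of the 26 tested proteins with counterparts in all ribosomes, 0 rose and 9, 7 and 7 fell at 6, 9 and 12 h (34.6, 26.9 and 26.9% fell). Of the 19 shared only with bacteria, 1, 0 and 2 rose and 6, 4 and 6 fell (31.6, 21.1 and 31.6%). Of the 30 found only in mitochondria, 2, 3 and 2 rose and 5, 5 and 9 fell (16.7% at 6 and at 9 h). The 9 of 30 that fell at 12 h are a larger share than the 21.4% of all genes. Against the same shares of all genes, several of the other shares that fell are close to the background. In each class the share that rose with these size factors was below that of all genes (16.1, 16.2 and 18.5%) at each time. The difference between these classes was not tested, and under quantile scaling 1 of the 26, 6 of the 19 and 7 of the 30 rose at 12 h, where 23.9% of all genes rose. The share of the 19 was then above that of all genes, and the share of the 30 close to it.

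Calls of 4 members held in the same direction at each time under all 21 alternative ways of processing, namely the rise of MRPL49 and the falls of MRPL17, MRPL12 and MRPS34. The stretch in front of the transcription start is shown for these 4, because they are the members whose change was steadiest. Sequences are from RefSeq on GRCh38.p14, written 5′ to 3′ on the gene's strand. The MRPL49 stretch is the 48 bases at chr11:65122135-65122182 (plus strand) between its own start and that of FAU, which runs the other way. The MRPL17 stretch is the 250 bases at chr11:6683341-6683590 (minus strand), the MRPL12 stretch the 250 bases at chr17:81703117-81703366 (plus strand), and the MRPS34 stretch the 250 bases at chr16:1773135-1773384 (minus strand), which overlap the neighbouring gene EME2. Capitals mark TGCGCA, the core of the motif that NRF1 recognises, which reads the same on both strands, and the ETS core CCGGAAG, which reads CTTCCGG on the other strand.
MRPL49: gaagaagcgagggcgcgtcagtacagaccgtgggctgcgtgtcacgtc
MRPL17: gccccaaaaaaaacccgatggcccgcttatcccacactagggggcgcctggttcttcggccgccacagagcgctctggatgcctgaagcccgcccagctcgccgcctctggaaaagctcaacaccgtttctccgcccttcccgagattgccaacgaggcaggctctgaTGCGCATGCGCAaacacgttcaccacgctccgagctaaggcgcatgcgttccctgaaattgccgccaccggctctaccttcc
MRPL12: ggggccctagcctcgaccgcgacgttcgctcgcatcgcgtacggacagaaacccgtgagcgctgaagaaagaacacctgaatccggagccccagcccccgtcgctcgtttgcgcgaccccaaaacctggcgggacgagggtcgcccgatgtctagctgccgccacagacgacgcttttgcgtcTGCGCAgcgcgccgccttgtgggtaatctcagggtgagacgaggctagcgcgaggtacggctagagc
MRPS34: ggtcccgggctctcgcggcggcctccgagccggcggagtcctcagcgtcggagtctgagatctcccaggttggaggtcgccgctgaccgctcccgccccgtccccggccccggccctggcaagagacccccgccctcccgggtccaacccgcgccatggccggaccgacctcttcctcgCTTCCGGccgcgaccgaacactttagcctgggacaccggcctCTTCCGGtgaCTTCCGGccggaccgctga
MRPL17 held 2 copies of TGCGCA side by side and MRPL12 held 1. MRPS34 held 3 copies of the ETS core on the other strand and no TGCGCA. The 48 bases of MRPL49 held none of the 7 motifs searched, but this stretch is shorter than the others. Farther out, at position -245 from its start, MRPL49 had the E-box CACGTG.

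RefSeq promoter windows, running from 250 bases before to 50 bases after the start, were matched for 68 members among 27305 symbols and searched on both strands. TGCGCA was in 19.1% of the member windows and 8.42% of all windows. The ETS core, which GABP recognises, was in 42.6% of the member windows and 10.7% of all. The YY1 motif AAGATGGCG was in 17.6% and 1.85%, the E-box CACGTG that MYC recognises in 8.82% and 7.43%, and CCAAT, the box bound by NF-Y, in 29.4% and 35.7%. TTTGAA, the core of the CHR element through which cell cycle genes are held down, was in 4.41% of the member windows and 15.4% of all. The p53 half-site was in 4.41% of the member windows and 6.54% of all. The windows of all symbols were not limited to expressed genes and not matched to the members in base content. These shares describe letters only, and no binding was measured here.

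MRPL49, a large-subunit protein found only in mitochondria, showed the largest rise at each time. It had 1446 and 1604 normalized counts at 6 h, 1669.9 and 1696 at 9 h and 1585 and 1583 at 12 h, against 1157 and 1091 in DMSO. Every Nutlin-3a library was above both DMSO libraries. The log2 changes were 0.44 ± 0.061 at 6 h, 0.58 ± 0.061 at 9 h and 0.49 ± 0.061 at 12 h, with limma adjusted p-values of 8.6e-06, 1.54e-07 and 1.26e-06. In GENCODE v29 MRPL49 overlaps genes on the other strand at both sides, FAU and SYVN1. FAU, which encodes a small cytosolic ribosomal protein fused to a ubiquitin-like one, had 4194 and 4389 normalized counts at 6 h, 4397 and 4333 at 9 h and 4436 and 4493 at 12 h, against 4396 and 4192 in DMSO, with no call at any time, groups that overlapped at 6 and 9 h and 12 h libraries above DMSO. SYVN1, a ubiquitin ligase of the endoplasmic reticulum, had a log2 change of -0.18 at 6 h, 0.37 at 9 h and 0.36 at 12 h, called each time, so at 6 h it went the other way from MRPL49. That 6 h call of SYVN1 was lost in 15 of 21 alternatives. The kit marks strand, but how the authors' counting used it is not known here, and whether the MRPL49 count holds reads of SYVN1 or FAU was not tested.

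MRPL39, another large-subunit protein particular to mitochondria, also rose at each time. It had 735 and 760.1 normalized counts at 6 h, 783 and 790.2 at 9 h and 793 and 734 at 12 h, against 622 and 680.0 in DMSO. No Nutlin-3a library reached down to the DMSO level. On the log2 scale its changes were 0.20 ± 0.071 at 6 h, 0.27 ± 0.071 at 9 h and 0.23 ± 0.071 at 12 h, with limma adjusted p-values of 0.03, 0.0046 and 0.013. The call at 9 h held in all 21 alternatives. The 6 h call was lost without DMSO replicate 1 (0.14) or either 6 h library (0.22 and 0.18) and in 5 of the 13 other ways of processing (other offsets, filters, scalings, fits and test programs), among them DESeq2 and the authors' deposited tests, and the 12 h call without DMSO replicate 1 or 12 h replicate 1 (0.17 in both cases).

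The other rises were called at 1 time each and rested on less. MRPS18C, a bacterial-type protein of the small subunit, had 339 and 381 normalized counts at 6 h, 299 and 292 at 9 h and 286 and 339 at 12 h, against 246 and 317 in DMSO. Both 6 h libraries were above DMSO, and the later ones were not clear of it. The 6 h change was 0.36 ± 0.11 (limma adjusted p 0.017), and the call was lost without DMSO replicate 1 (0.18) or 6 h replicate 2 (0.28), and also without an intensity trend, with DESeq2 and in the authors' deposited tests. The later log2 changes were 0.081 at 9 h and 0.16 at 12 h, without a call, and both turned negative without DMSO replicate 1 (-0.10 and -0.026).

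MRPS6, a small-subunit protein with a bacterial counterpart, had 1190.0 and 1305 normalized counts at 12 h, against 1062 and 1096 in DMSO. The groups did not overlap, and the log2 change was 0.21 ± 0.064 (limma adjusted p 0.013). At 6 and 9 h the changes were 0.064 and 0.092, without a call, and the 12 h call was lost without 12 h replicate 2 (0.14) and without an intensity trend. MRPS6 shares sequence on the same strand with SLC5A3, a myo-inositol transporter whose log2 change was 0.66, 0.64 and 0.66, all called, and reads split between the genes make the MRPS6 value uncertain.

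MRPL27, a large-subunit protein near the site of peptide bond formation, rose at 12 h by 0.17 ± 0.066 (limma adjusted p 0.044), with 1208 and 1095 normalized counts at 12 h, against 982 and 1059 in DMSO. MRPL53, a large-subunit protein particular to mitochondria, rose at 9 h by 0.19 ± 0.073 (limma adjusted p 0.0497), with 617 and 610.2 at 9 h, against 526 and 551 in DMSO. Neither pair of groups overlapped. Both adjusted p-values lay just under 0.05, and the calls were lost in 6 and 7 of the 8 cases in which a library was left out, namely all except DMSO replicate 2 and 12 h replicate 2 for MRPL27 and all except DMSO replicate 2 for MRPL53. Without the lost libraries the changes were 0.10 to 0.17 for MRPL27 and 0.16 to 0.20 for MRPL53. Of the 13 other ways of processing, 6 ended the call of MRPL27 and 8 that of MRPL53, DESeq2 and the authors' deposited tests among them for both.

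**Figure D3:**
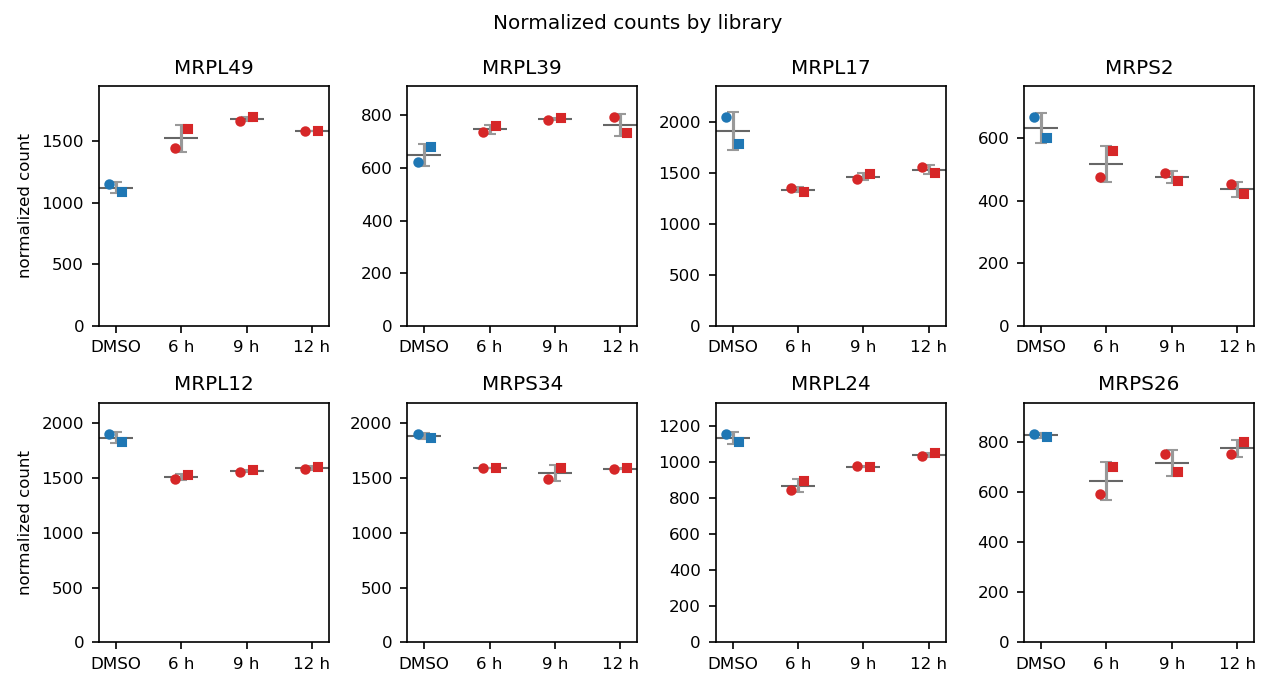
Normalized counts (vertical axes, starting at 0) of 8 members in each library, in DMSO (blue) and after 6, 9 and 12 h of Nutlin-3a (red), with circles for replicate 1, squares for replicate 2, a line at the mean and bars of 1 SD (n = 2). MRPL49 and MRPL39 sit above DMSO at all times and MRPL17, MRPS2, MRPL12 and MRPS34 below it, while MRPL24 and MRPS26 are lowest at 6 h.

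MRPL17, a large-subunit protein near the exit of the tunnel through which the new protein leaves, showed the largest fall of any member at 6 h. It had 1352 and 1315 normalized counts at 6 h, 1441 and 1486 at 9 h and 1561 and 1497 at 12 h, against 2045 and 1779 in DMSO. All 6 Nutlin-3a libraries were below both DMSO libraries. The log2 changes were -0.52 ± 0.064 at 6 h, -0.38 ± 0.064 at 9 h and -0.32 ± 0.064 at 12 h, with limma adjusted p-values of 1.98e-06, 7.23e-05 and 0.000419. It overlaps no other gene in GENCODE v29.

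MRPL12 forms the stalk of the large subunit that recruits translation factors, and is also known to bind the mitochondrial RNA polymerase. It had 1492 and 1529.8 normalized counts at 6 h, 1557 and 1571 at 9 h and 1579.6 and 1602 at 12 h, against 1905 and 1834 in DMSO. The groups stood apart at each time. On the log2 scale its changes were -0.31 ± 0.054 at 6 h, -0.26 ± 0.054 at 9 h and -0.23 ± 0.054 at 12 h, with limma adjusted p-values of 0.000134, 0.000804 and 0.0017. In GENCODE v29 it overlaps AC139530.2 on the same strand. MRPL11, at the base of that stalk, fell as well, with log2 changes of -0.28 at 6 h, -0.21 at 9 h and -0.24 at 12 h. Its 6 h call was lost without 6 h replicate 1 (-0.24), its 9 h call without DMSO replicate 1 (-0.18) or either 9 h library (-0.23 and -0.19), and its 12 h call without 12 h replicate 1 (-0.13). The other ways of processing ended its calls at 6, 9 and 12 h in 1, 5 and 2 of 13 cases, those at 9 h including DESeq2 and the authors' deposited tests.

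MRPL37, a large-subunit protein particular to mitochondria, fell at each time and was lowest at 12 h, although the difference between 12 and 6 h was not called. It had 2026 and 2219 normalized counts at 6 h, 2084 and 2162 at 9 h and 1983 and 1929 at 12 h, against 2575 and 2327 in DMSO. All Nutlin-3a libraries were below both DMSO libraries. The log2 changes were -0.21 ± 0.060 at 6 h, -0.21 ± 0.060 at 9 h and -0.32 ± 0.060 at 12 h, with limma adjusted p-values of 0.0098, 0.011 and 0.000193. The 12 h call held in all alternatives, whereas the 6 h call was lost without DMSO replicate 1 (-0.13) or 6 h replicate 1 (-0.14), and the 9 h call without DMSO replicate 1 (-0.13) or 9 h replicate 1 (-0.18), and both without an intensity trend. MRPL37 overlaps SSBP3 on the other strand.

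MRPL3, a large-subunit protein shared by all ribosomes and the member with the highest count, changed little. Its values were 2774 and 2872 normalized counts at 6 h, 2771 and 2847 at 9 h and 2849.8 and 2697 at 12 h, against 3194 and 3027 in DMSO. It was lower in every Nutlin-3a library, and the log2 changes of -0.14 at 6 h, -0.15 at 9 h and -0.17 at 12 h were all called. The 6 h call was lost in 7 of the 8 cases in which a library was left out, all except DMSO replicate 2 (-0.16 to -0.10). The 9 h call was lost without DMSO replicate 1 or either 9 h library (-0.17 to -0.11), and the 12 h call without 12 h replicate 2 (-0.13). The other ways of processing ended the calls at 6, 9 and 12 h in 8, 6 and 2 of 13 cases, those at 6 and 9 h including edgeR, DESeq2 and the authors' deposited tests.

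MRPL46 and MRPS30, both large-subunit proteins particular to mitochondria, were first called at 9 h. MRPL46 had 393 and 406 normalized counts at 6 h, 341 and 352 at 9 h and 350.3 and 370.4 at 12 h, against 467 and 393 in DMSO. The 6 h libraries overlapped DMSO and the later ones lay below it. The log2 change was -0.31 ± 0.091 at 9 h and -0.25 ± 0.091 at 12 h, with limma adjusted p-values of 0.012 and 0.034. The 9 h call was lost without DMSO replicate 1 (-0.18) or 9 h replicate 1 (-0.28), and the 12 h call without DMSO replicate 1 (-0.13) or either 12 h library (-0.21 and -0.29). Of the 13 other ways of processing, 1 ended the 9 h call and 6 the 12 h call, those at 12 h including DESeq2 and the authors' deposited tests. At 6 h the change was -0.10, without a call, and turned to 0.021 without DMSO replicate 1. MRPS30 had 504 and 526 normalized counts at 9 h, against 634 and 596 in DMSO, and fell with a log2 change of -0.26 ± 0.074 and an adjusted p of 0.01, lost without 9 h replicate 1 (-0.22) and with quantile scaling (-0.19). Its changes at 6 and 12 h were -0.081 and -0.18, without a call.

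Some members named for their roles showed no called change at any time. MRPL41, which is particular to mitochondria, had log2 changes of -0.069 at 6 h, -0.053 at 9 h and 0.083 at 12 h. MRPL23, at the tunnel exit and shared by all ribosomes, had 0.026 at 6 h, -0.027 at 9 h and -0.028 at 12 h, and MRPS18A had -0.022 at 6 h, -0.048 at 9 h and -0.12 at 12 h. Their signs are not settled, since scaling by quantiles or leaving out a library turned the sign at 1 or more of these times.

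In the small subunit, MRPS2, a protein shared by all ribosomes, showed the largest fall at 9 and 12 h. It had 475 and 558 normalized counts at 6 h, 489 and 462 at 9 h and 452 and 419 at 12 h, against 666 and 598 in DMSO. All Nutlin-3a libraries were below both DMSO libraries, and the 12 h libraries were the lowest. The log2 changes were -0.29 ± 0.088 at 6 h, -0.41 ± 0.088 at 9 h and -0.53 ± 0.088 at 12 h, with limma adjusted p-values of 0.013, 0.001 and 5.1e-05. The 9 and 12 h calls held in all 21 alternatives, and the 6 h call was lost without DMSO replicate 1 (-0.22) or 6 h replicate 1 (-0.18), with quantile scaling (-0.23) and without an intensity trend. MRPS2 overlaps C9orf116 and AL161452.1 on the other strand.

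MRPS34, a small-subunit protein found only in mitochondria, had 1587 and 1591 normalized counts at 6 h, 1488 and 1592 at 9 h and 1579.6 and 1587 at 12 h, against 1900.1 and 1857 in DMSO. The 3 times lay close together, all below DMSO. The log2 changes were -0.24 ± 0.055 at 6 h, -0.29 ± 0.055 at 9 h and -0.25 ± 0.055 at 12 h, with limma adjusted p-values of 0.0017, 0.000334 and 0.0012. MRPS27, an RNA-binding protein of the small subunit, had 1326 and 1279 normalized counts at 6 h, 1325 and 1390.4 at 9 h and 1256 and 1234 at 12 h, against 1537 and 1555 in DMSO, again with no overlap. Its log2 changes were -0.25 ± 0.057 at 6 h, -0.19 ± 0.057 at 9 h and -0.31 ± 0.057 at 12 h, with limma adjusted p-values of 0.0017, 0.014 and 0.000163, and the 9 h call was lost without 9 h replicate 1 (-0.15) and with quantile scaling (-0.14).

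MRPS11 and MRPS12 have counterparts in all ribosomes, and MRPS12 sits where codons are read. MRPS11 had 834 and 884 normalized counts at 6 h, 819 and 851 at 9 h and 764 and 795 at 12 h, against 972 and 949 in DMSO. Every Nutlin-3a library was below DMSO, and the log2 changes were -0.16 at 6 h, without a call, and -0.20 ± 0.065 at 9 h and -0.30 ± 0.065 at 12 h, with limma adjusted p-values of 0.02 and 0.000863. The 12 h call held in all alternatives, and the 9 h call was lost without either 9 h library (-0.17 and -0.23), with quantile scaling (-0.13), with DESeq2 and in the authors' deposited tests. MRPS12 had log2 changes of -0.26 at 6 h, -0.13 at 9 h and -0.23 at 12 h, of which the first and the last were called. The 6 h call was lost without 6 h replicate 1 (-0.20) and the 12 h call without 12 h replicate 2 (-0.15), with quantile scaling (-0.14), without an intensity trend, with DESeq2 and in the authors' deposited tests.

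The 2 pseudogenes showed no called change. MRPL45P2 had 28.8 and 32.7 normalized counts at 6 h, 19.9 and 44.8 at 9 h and 30.3 and 38.5 at 12 h, against 33.2 and 32.2 in DMSO. MRPS31P5 had 110.1 and 91.3 at 6 h, 102 and 74.9 at 9 h and 86.8 and 87.4 at 12 h, against 108 and 94.5 in DMSO. The groups overlapped, except that both 12 h libraries of MRPS31P5 were below DMSO. Reads that fit both a pseudogene and its parent gene could have been counted for either or set aside, which makes these values uncertain.

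Few members moved between the Nutlin-3a times. Between 9 and 6 h limma called 0 members, with 11 at an unadjusted p under 0.05, while 18.4% of all genes were called (8.52% higher and 9.9% lower at 9 h). An unadjusted limma p under 0.05 was there reached by 4324 of all 14074 genes, a larger share than among the members. Between 12 and 9 h limma called 0 members, with 2 at an unadjusted p under 0.05, while 4.0% of all genes were called (1.08% higher and 2.92% lower at 12 h). Of all 14074 genes, 2073 had an unadjusted limma p under 0.05, again a larger share. On recovered reads edgeR called 0 members in both comparisons, with 11 and 2 at an unadjusted p under 0.05, and DESeq2 called 0, with 2 and 0. Among all genes edgeR called 2597 and 572, and DESeq2 1849 and 449. Between 12 and 6 h, 7 members were higher and 1 lower at 12 h by limma, where 31.5% of all genes were called (14.4% higher and 17.1% lower), and the median of the members was 0.0072. These counts rested on single libraries, since 0 members were higher without 6 h replicate 1, 3 without 6 h replicate 2, 4 without 12 h replicate 1 and 1 without 12 h replicate 2. By libraries that did not overlap, 17 members were higher and 21 lower at 12 than at 6 h (32.4% and 34.2% of all genes), 18 higher and 14 lower at 9 than at 6 h (30.3% and 30.4%), and 14 higher and 18 lower at 12 than at 9 h (22.6% and 27.2%). Without DMSO replicate 1, and likewise without DMSO replicate 2, 11 were higher and 5 lower, and without any 1 of the other libraries except 6 h replicate 1 the count of lower members was 0.

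Members that were higher at 12 h than at 6 h included some of the strongest falls at 6 h. MRPL24, a protein near the tunnel exit that all ribosomes have, had 843 and 897 normalized counts at 6 h, 976 and 976 at 9 h and 1032 and 1049 at 12 h, against 1157 and 1109.8 in DMSO. All Nutlin-3a libraries were below DMSO, those at 6 h farthest. Against DMSO the log2 changes were -0.38 ± 0.062 at 6 h (limma adjusted p 5.46e-05), -0.22 ± 0.062 at 9 h (0.0096) and -0.12 ± 0.062 at 12 h (0.12). The 6 h call held in all alternatives, and the 9 h call was lost without either 9 h library (-0.22 in both cases) and with quantile scaling (-0.15).

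MRPS26, a small-subunit protein particular to mitochondria, had 590.4 and 698 normalized counts at 6 h, 752 and 677 at 9 h and 749 and 797 at 12 h, against 831 and 818 in DMSO. It too was lowest at 6 h, and no Nutlin-3a library reached the DMSO level. The log2 change at 6 h was -0.36 ± 0.080 (limma adjusted p 0.0014), lost without 6 h replicate 1 (-0.24), and those at 9 and 12 h were -0.21 and -0.093, without a call. MRPL34, a small bacterial-type protein of the large subunit, had 459 and 462 normalized counts at 6 h, 534 and 502 at 9 h and 530.3 and 558 at 12 h, against 576 and 555 in DMSO. The 6 h change was -0.30 ± 0.075 (limma adjusted p 0.0039) and held in all alternatives, and at 12 h the libraries overlapped DMSO. MRPL2, which lies at the site of peptide bond formation, had 447 and 449.7 normalized counts at 6 h and 506 and 543 at 12 h, against 561 and 524 in DMSO. It fell at 6 h with a log2 change of -0.27 ± 0.078 (limma adjusted p 0.0086), a call lost without 6 h replicate 1 (-0.27), and overlapped DMSO at 12 h.

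**Figure D4:**
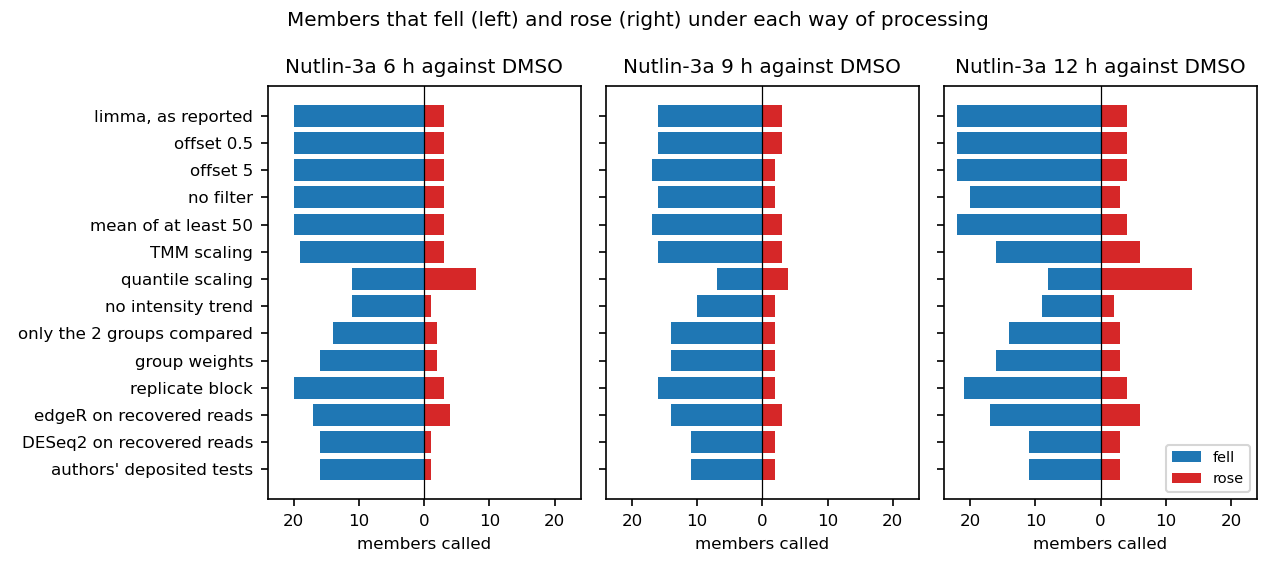
Number of members that fell (blue, to the left) and rose (red, to the right) at 6, 9 and 12 h of Nutlin-3a against DMSO, under the reported processing and 13 alternatives. Falls outnumber rises except with quantile scaling at 12 h, where 14 rose and 8 fell.

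Other genes of mitochondrial translation had mostly small changes too. Some of the lowest values came from single assembly factors, TFAM and regulators of the making of mitochondria, described in turn here. Of the 5 tested subunits that carry other symbols, 0 rose and 2 fell at 6 h, 0 rose and 2 fell at 9 h, and 0 rose and 1 fell at 12 h. Among all genes 20.6, 19.1 and 21.4% fell and 16.1, 16.2 and 18.5% rose, but 5 genes are too few for a close comparison. PTCD3, an RNA-binding protein of the small subunit, had 1316 and 1307 normalized counts at 6 h, 1318 and 1442 at 9 h and 1356 and 1342 at 12 h, against 1599 and 1651 in DMSO. Its groups did not overlap, and the log2 changes were -0.31 ± 0.059 at 6 h, -0.24 ± 0.059 at 9 h and -0.27 ± 0.059 at 12 h, all called. The 9 h call was lost without 9 h replicate 1 (-0.17). GADD45GIP1, of the large subunit, changed by -0.20 at 6 h and -0.19 at 9 h, both called, and both calls were lost without DMSO replicate 1 (-0.071 and -0.068) and without either library of that time (-0.20 to -0.19), and in 3 of the 13 other ways of processing. DAP3, a GTP-binding protein of the small subunit, had log2 changes of 0.013 at 6 h, 0.062 at 9 h and 0.051 at 12 h, none called. AURKAIP1 had -0.038 at 6 h, -0.078 at 9 h and -0.080 at 12 h and CHCHD1 had 0.11 at 6 h, 0.097 at 9 h and 0.14 at 12 h, again none called.

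Of the 26 genes for assembly of the mitochondrial ribosome and modification of its RNA, 0 rose at the 3 times and 5, 6 and 10 fell, with median log2 changes of -0.14, -0.11 and -0.16. The falls were 19.2, 23.1 and 38.5% of the list, against 20.6, 19.1 and 21.4% of all genes, near the background at 6 and 9 h. Under quantile scaling 1 rose at each time and 4, 5 and 6 fell, where 17.7, 19.7 and 23.9% of all genes rose and 18.0, 16.2 and 17.6% fell. MTERF3, which is needed for assembly of the large subunit, had 454 and 488 normalized counts at 6 h, 432 and 383 at 9 h and 342 and 334 at 12 h, against 554 and 545 in DMSO, lowest at 12 h and without overlap. Changes on the log2 scale were -0.22 ± 0.083 at 6 h, -0.43 ± 0.083 at 9 h and -0.70 ± 0.083 at 12 h, and the 6 h call was lost in 14 of 21 alternatives, among them leaving out DMSO replicate 1 (-0.21), either 6 h library (-0.17 and -0.27) or either 12 h library (-0.22 each). MRM2, which methylates the large ribosomal RNA, had log2 changes of -0.42 at 6 h, -0.47 at 9 h and -0.52 at 12 h, and RBFA, which matures the small subunit, of -0.49 at 6 h, -0.38 at 9 h and -0.36 at 12 h, all with calls that held in all alternatives. ERAL1, a chaperone of the small ribosomal RNA, had log2 changes of -0.13 at 6 h, -0.18 at 9 h and -0.29 at 12 h. The last change held in all alternatives, the 9 h call was lost without DMSO replicate 1 (-0.12) or either 9 h library (-0.18 each) and in 6 of the 13 other ways of processing, and the 6 h change was not called.

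Of the 14 translation factors, 0 rose and 2, 1 and 1 fell at 6, 9 and 12 h, with median changes of -0.030, -0.040 and -0.051 that became 0.023, 0.020 and 0.021 under quantile scaling. The falls were 14.3, 7.14 and 7.14% of the list, below the share of all genes. Under quantile scaling 2, 0 and 1 rose and 2, 0 and 0 fell, where 17.7, 19.7 and 23.9% of all genes rose and 18.0, 16.2 and 17.6% fell. MRRF, the ribosome recycling factor, fell with a log2 change of -0.26 ± 0.081 at 6 h and -0.21 ± 0.081 at 12 h, and C12orf65, a release factor-like protein, fell with -0.38 ± 0.10 at 6 h and -0.28 ± 0.10 at 9 h. The 12 h call of MRRF was lost in 7 of the 8 cases in which a library was left out (all except DMSO replicate 2, -0.25 to -0.14) and its 6 h call without DMSO replicate 1 or either 6 h library (-0.27 to -0.20). The C12orf65 calls were lost at 6 h without 6 h replicate 2 (-0.33) and at 9 h in 5 such cases, which left out DMSO replicate 1 or any 9 or 12 h library (-0.32 to -0.25). DESeq2 on recovered reads and the authors' deposited tests made none of these 4 calls. TUFM, the mitochondrial elongation factor, and TSFM, its exchange factor, were not called at any time.

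Of the 16 tested mitochondrial aminoacyl-tRNA synthetases, which load transfer RNAs, 2, 3 and 1 rose and 4, 3 and 2 fell at 6, 9 and 12 h. The falls were 25.0, 18.8 and 12.5% of the list, against 20.6, 19.1 and 21.4% of all genes. The rises were 12.5, 18.8 and 6.25%, against 16.1, 16.2 and 18.5%. Under quantile scaling 2, 3 and 2 rose and 2, 1 and 1 fell, where 17.7, 19.7 and 23.9% of all genes rose and 18.0, 16.2 and 17.6% fell. AARS2, the alanine enzyme, had 729 and 719 normalized counts at 6 h, 896 and 879 at 9 h and 895 and 836 at 12 h, against 702 and 683 in DMSO. It rose at 9 h by 0.36 ± 0.066 and at 12 h by 0.32 ± 0.066, under every alternative, and its 6 h change of 0.064 was not called. NARS2, the asparagine enzyme, had log2 changes of -0.30 at 6 h, -0.22 at 9 h and -0.24 at 12 h, all called. The first held in all alternatives, the 9 h call was lost without DMSO replicate 2 (-0.21) or either 9 h library (-0.27 and -0.18), and the 12 h call without 12 h replicate 2 (-0.16). DESeq2, the authors' deposited tests and quantile scaling made neither of these later calls. EARS2, the glutamate enzyme, fell at 6 h with -0.34 under all alternatives and at 9 h with -0.17, a call lost in 7 of the 8 cases in which a library was left out (all except DMSO replicate 2, -0.17 to -0.13) and in 10 of the 13 other ways of processing, and its 12 h change of -0.16 was not called.

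Of 23 tested genes for mitochondrial DNA upkeep, transcription and RNA processing, 0 rose and 6 fell at each time, or 26.1%, against 20.6, 19.1 and 21.4% of all genes, which is near the background. Under quantile scaling 1, 1 and 4 rose and 3, 4 and 5 fell at 6, 9 and 12 h. Of all genes 17.7, 19.7 and 23.9% then rose and 18.0, 16.2 and 17.6% fell. TFAM, which packages mitochondrial DNA and starts its transcription, had 958 and 974 normalized counts at 6 h, 799.6 and 849 at 9 h and 721 and 763 at 12 h, against 1095 and 1355 in DMSO. The level was lower at each later time and never overlapped DMSO, with log2 changes of -0.33 ± 0.080 at 6 h, -0.56 ± 0.080 at 9 h and -0.71 ± 0.080 at 12 h. PNPT1, an RNA exonuclease, had log2 changes of -0.29 at 6 h, -0.44 at 9 h and -0.47 at 12 h, with the calls held in every alternative. SUPV3L1, its helicase partner, had log2 changes of -0.20 at 6 h, -0.21 at 9 h and -0.29 at 12 h, and TBRG4, which stabilises mitochondrial messengers, of -0.18 at 6 h, -0.22 at 9 h and -0.32 at 12 h. The 12 h calls of both held in all alternatives. The calls of SUPV3L1 were lost without DMSO replicate 1 or either library of the time at 6 h (-0.20 to -0.17) and 9 h (-0.25 to -0.17), and those of TBRG4 without 6 h replicate 1 (-0.13) and 9 h replicate 1 (-0.21). At 6 h 6 and 5 of the 13 other ways of processing ended the calls of SUPV3L1 and TBRG4, and at 9 h 3 ended that of SUPV3L1, DESeq2 and the authors' deposited tests among them each time. The 6 h call of TFAM was lost without an intensity trend.

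Among the 10 tested regulators of mitochondrial biogenesis, 0 rose and 4, 5 and 6 fell, with medians of -0.19, -0.22 and -0.39. Among all genes 20.6, 19.1 and 21.4% fell at 6, 9 and 12 h, so the share that fell was above the background each time. Rises made up 16.1, 16.2 and 18.5% of all genes, so the share that rose was below it. The list is short, and its difference from all genes was not tested. With quantile scaling 0 rose and 4, 4 and 5 fell, where 17.7, 19.7 and 23.9% of all genes rose and 18.0, 16.2 and 17.6% fell. NRF1 had 427 and 419.9 normalized counts at 6 h, 356 and 338 at 9 h and 294 and 310.1 at 12 h, against 543 and 493 in DMSO. It was lower at each later time, and the log2 changes were -0.29 ± 0.084 at 6 h, -0.58 ± 0.084 at 9 h and -0.78 ± 0.084 at 12 h, with limma adjusted p-values of 0.01, 1.64e-05 and 2.42e-07. The 6 h call was lost without DMSO replicate 1 (-0.22) or 6 h replicate 2 (-0.28) and in the authors' deposited tests. MYC, a growth-promoting transcription factor, had 958 and 965 normalized counts at 6 h, 935 and 915 at 9 h and 854 and 848 at 12 h, against 1559 and 1486 in DMSO, with log2 changes of -0.66 ± 0.060 at 6 h, -0.72 ± 0.060 at 9 h and -0.84 ± 0.060 at 12 h. PPRC1, a coactivator of NRF1, had log2 changes of -0.44 at 6 h, -0.35 at 9 h and -0.43 at 12 h, called under every alternative. GABPB1, the GABP subunit that activates transcription, fell with a log2 change of -0.23 ± 0.067 at 9 h and -0.35 ± 0.067 at 12 h, and the 9 h call was lost without 9 h replicate 1 (-0.20), with quantile scaling (-0.15), with DESeq2 and in the authors' deposited tests. The remaining falls at 12 h were those of PPARGC1B and YY1, which the naming rule did not cover and which were named after their values were seen. Their log2 changes at 12 h were -1.11 and -0.16. Whether these 2 calls held under the alternatives is not given here, unlike for the genes above. These lists describe RNA levels side by side, and whether the regulators' RNA bears on the members was not tested.

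**Figure D5:**
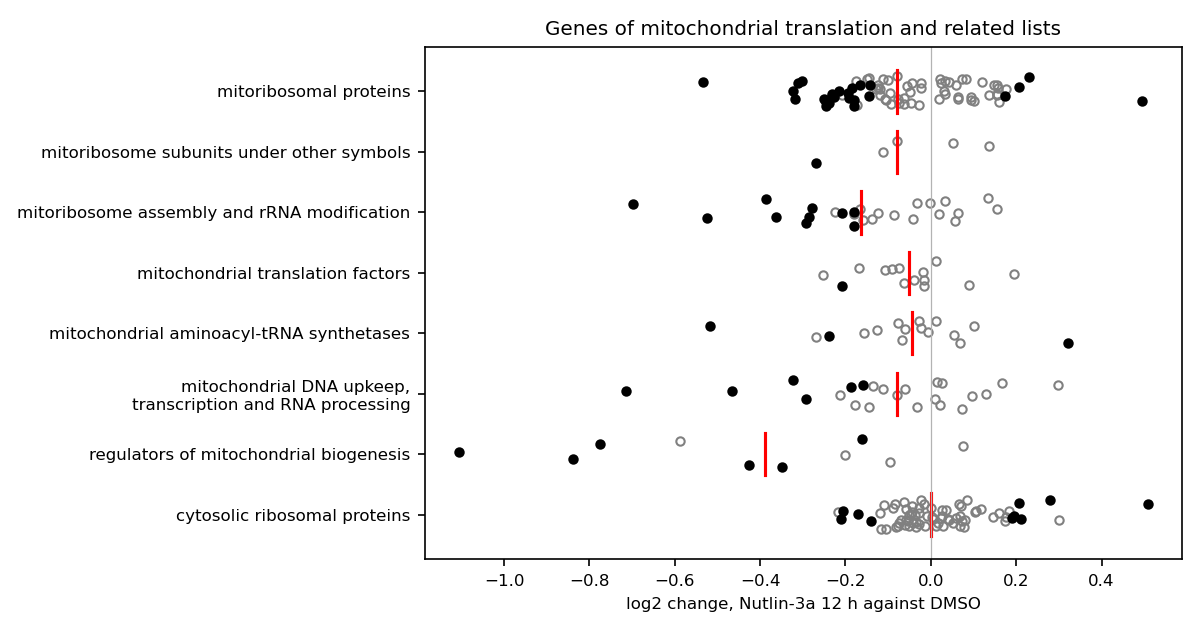
Log2 change at 12 h of Nutlin-3a against DMSO (horizontal axis) of the tested genes of each list (rows), filled where limma called the change, with a red line at the list's median. The mitochondrial ribosomal proteins lie mostly within 0.25 of 0 with a median of -0.079, the regulators of biogenesis reach lower with a median of -0.39, and the cytosolic ribosomal proteins center on 0.00081.

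The proteins of the cytosolic ribosome, measured in the same libraries, centred near 0. Of 73 tested genes, 14 rose and 1 fell at 6 h, 5 rose and 3 fell at 9 h, and 6 rose and 4 fell at 12 h, with medians of 0.018, -0.0085 and 0.00081. The falls were 1.37, 4.11 and 5.48% of the list, against 20.6, 19.1 and 21.4% of all genes. The rises were 19.2, 6.85 and 8.22%, against 16.1, 16.2 and 18.5%, near the background at 6 h and below it later. With quantile scaling 8 rose and 8 fell at 6 h, 6 and 6 at 9 h, and 7 and 7 at 12 h, with medians of -0.023, -0.011 and 0.0084. Of all genes 17.7, 19.7 and 23.9% then rose and 18.0, 16.2 and 17.6% fell. The difference between the cytosolic and the mitochondrial set was not tested.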

How the data were processed

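PolyA RNA of 8 IMR90 libraries was sequenced with a kit that marks strand, per the labels' protocols. STAR, DESeq2 and the build hg19 are named in the submitters' processing notes without versions. Which program counted reads, on which annotation and with what strand option, is not given in the sources used here. Deposited by the authors were gene counts divided by a size factor per library (a normalized signal), and DESeq2 tables with log2 fold changes of DMSO over Nutlin-3a (sign turned here), a score (the Wald statistic), p-values and adjusted p-values.

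The table also held 3 entries that name no gene, with 28.2 to 29.1% of each library's total, which were left out. Values were whole multiples of 1 read within a tolerance of 1e-06 (100% of values), so reads were recovered, 21.9 to 33.6 M per library. A floor of 3 reads equals 2.46 to 3.75 normalized counts and covers counting error only.

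The test was limma 3.58.1 (R 4.3.3) with an intensity trend on log2(normalized count + 1), a single fit of 8 libraries and 4 groups without covariates, for the 14074 genes with at least 10 in at least 2 libraries. It had 4 residual and 15.5 prior degrees of freedom. P-values were adjusted over all these genes (Benjamini and Hochberg, 0.05), and rose and fell refer to genes so called. Values after ± are standard errors of log2 changes. A log2 change on this scale understates that of low genes. The code was tested on simulated data. Alternatives were other offsets, filters and scalings, no trend, 2 groups only, group weights, a replicate block, edgeR 4.0.16 and DESeq2 1.42.0 on recovered reads, the authors' tests, and leaving out each library.

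Members and gene lists were chosen with earlier results of these data known. Named were the 6 largest called rises and falls per comparison, members with the 3 highest and 3 lowest means, pseudogenes, a list of members of known role, and up to 4 genes per list by p at 12 h. A gene that this rule covers is not reported here. Promoter windows and genes' overlaps came from RefSeq (GRCh38.p14) and GENCODE v29, and no coordinates were converted.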

Additional observations from a re-analysis of the deposited data

Results flagged for a closer look

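For 8 members the change with Nutlin-3a at 12 h differed from that at 6 h by the limma test of the difference itself, with the log2 value at 12 h minus that at 6 h given here. It was 0.27 ± 0.080 for MRPS26 (limma adjusted p 0.015), 0.26 ± 0.062 for MRPL24 (0.0028), 0.24 ± 0.075 for MRPL34 (0.018) and 0.23 ± 0.078 for MRPL2 (0.032). It was 0.20 ± 0.064 for MRPL17 (limma adjusted p 0.023), 0.17 ± 0.055 for MRPL28 (0.025) and 0.15 ± 0.052 for MRPL51 (0.031). MRPS2 went the other way with -0.24 ± 0.088 (limma adjusted p 0.04).

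MRPL28 and MRPL51, both large-subunit proteins, showed no called change against DMSO at any time. MRPL28 had 1802 and 1828 normalized counts at 12 h, against 1589 and 1648 at 6 h. MRPL51 had 2511 and 2668 at 12 h, against 2278 and 2377 at 6 h. Neither pair of groups overlapped. None of the 8 calls held in all 20 alternatives. The call of MRPL24 was lost only without 6 h replicate 1 (0.21). That of MRPS26 was lost without 6 h replicate 1 (0.15) or 12 h replicate 2 (0.22), and without an intensity trend (0.27). The calls of MRPL17, MRPL2 and MRPL28 were each lost without any 1 of the 4 libraries compared (0.17 to 0.23, 0.17 to 0.28 and 0.14 to 0.19). Those of MRPL34 and MRPL51 were lost without either 6 h library or 12 h replicate 2 (0.20 to 0.24 and 0.11 to 0.18). That of MRPS2 was lost in 5 of the 8 cases in which a library was left out (-0.30 to -0.13), with TMM or quantile scaling (-0.23 and -0.22), without an intensity trend and with DESeq2. DESeq2 also did not call MRPL2, MRPL28, MRPL34 and MRPL51, and the fit without an intensity trend did not call MRPL17, MRPL2, MRPL28 and MRPL51.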

How the results depend on the processing

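Counts and medians over the members moved by at most 1.5 times (counts) or less than the replicates' spread (medians) in 226 recomputed cases, and by more in 55. Some of the 226 could not move. The medians are fixed without an intensity trend and with 2 groups only, group weights or a replicate block. They are also fixed when a library outside the comparison is left out. The 226 thus overstate how stable the results are. Quantile scaling gave 8, 4 and 14 rises, 11, 7 and 8 falls and medians of -0.014, -0.021 and -0.0056 at 6, 9 and 12 h, and 0 falls between 12 and 6 h. Without an intensity trend 1 and 2 rose at 6 and 12 h, 11, 10 and 9 fell at 6, 9 and 12 h, and 2 rose and 0 fell between 12 and 6 h. DESeq2 on recovered reads gave 1 rise at 6 h, 11 falls at 12 h, and 3 rises and 0 falls between 12 and 6 h. The authors' deposited tests gave 1 rise at 6 h and 11 falls at 12 h. With only the 2 groups compared, 14 fell at 12 h, and 11 rose and 3 fell between 12 and 6 h. Group weights gave 11 rises and 2 falls between 12 and 6 h, TMM scaling 0 falls there, and edgeR a median of -0.052 at 9 h. The F test over the 4 groups called 22 members, 11 without an intensity trend and 12 with DESeq2.

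Leaving out 1 library at a time gave 1 to 8 rises and 6 to 24 falls at 6 h, 2 to 7 and 6 to 22 at 9 h, 2 to 10 and 10 to 23 at 12 h, 0 to 11 and 0 to 5 between 12 and 6 h, and 15 to 35 members in the F test. The F test count of 35 came without DMSO replicate 2. Where it left a group with 1 library, that library was assumed to vary like the other groups.

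No called change of a named gene turned its sign. Among changes that were not called, quantile scaling gave MRPL2 0.0057 at 9 h and 0.029 at 12 h, MRPL23 0.048 at 9 h and 0.063 at 12 h, MRPL34 0.025 at 12 h, MRPL41 0.0097 at 9 h, and MRPS18A 0.046 at 6 h and 0.026 at 9 h. The ranges when 1 library at a time was left out crossed 0 as well, for DAP3 (-0.0054 to 0.031 at 6 h), MRPL2 (-0.10 to 0.0022 at 12 h), MRPL23 (-0.063 to 0.11 at 6 h, -0.088 to 0.035 at 9 h and -0.090 to 0.033 at 12 h), MRPL46 (-0.23 to 0.021 at 6 h), MRPS18A (-0.13 to 0.085 at 6 h and -0.16 to 0.059 at 9 h) and MRPS18C (-0.10 to 0.26 at 9 h and -0.026 to 0.34 at 12 h). The cause of these moves was not tested.

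The difference of replicate 1 and 2 correlated at -0.18 between DMSO and 6 h and at 0.12 between DMSO and 12 h over 10612 genes. These were the lowest and highest values between any 2 groups. Such weak correlations cannot show whether the replicate numbers pair samples. With the replicate number as a block, 3, 2 and 4 members rose and 20, 16 and 21 fell at 6, 9 and 12 h, and 9 rose and 1 fell between 12 and 6 h. The F test then called 24. The block ended the calls of MRPL53 and EARS2 at 9 h and of MRPL42 and MRRF at 12 h. With the 6 h numbers crossed, chosen after seeing the data, 3, 3 and 5 rose and 22, 19 and 22 fell at 6, 9 and 12 h. With 2 libraries a group, a missing call does not show that a level stayed the same.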
